A study of Saccharomyces cerevisiae with 4 samples.

Results

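The transcript response of a parental budding yeast strain to glycerol in place of glucose was read from 2 two-colour oligonucleotide arrays, out of 8 arrays in the series. Both arrays of the comparison labelled parental glycerol against parental glucose were taken, with every gene probe on them, 6256 genes in all, of which 5343 passed a filter on dim spots and were tested. The strain is labelled BY4741 and, per the labels, has normal activity of mevalonate kinase, the ERG12 product that feeds the synthesis of sterols and other isoprenoids. The other 6 arrays involve a second strain whose ERG12 is a DAmP allele, in which a disturbed end of the transcript lowers its amount; this mutant has 10% of the parental activity per the labels. Cells of both strains grew in synthetic medium with glucose, were washed and were placed in medium with 20 g/L of glucose or of glycerol. The labels give different accounts of what came next. One account is an incubation of 1 h after the transfer, another is cultivation until the optical density went from 0.1 to 0.5, and the treatment text adds 1 h in acidified rich medium. Which of these applies to the RNA on the arrays was not settled here, so the ratios compare cells of the glycerol culture with cells of the glucose culture without a known time. Glycerol RNA carried the dye Cy5 and glucose RNA the dye Cy3 on both arrays, with no dye swap, so a dye effect of a gene cannot be told apart from its response.

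Budding yeast ferments glucose to ethanol even in air and keeps many genes for other carbon sources repressed while glucose lasts. On glycerol, which cannot be fermented by laboratory strains, the cells depend on mitochondrial respiration: glycerol enters as glycerol 3-phosphate, is oxidised at the mitochondrial inner membrane, and sugar phosphates are made by gluconeogenesis. The switch is known to run through the kinase Snf1, which inactivates the repressor Mig1 and acts through the activators Adr1, Cat8 and the Hap complex, while protein kinase A promotes growth genes and restrains stress genes.

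Ratios are given as log2 of glycerol over glucose, so that 1 is a 2-fold higher level in glycerol and -1 a 2-fold lower one. Each is relative to the trend of all genes on its array. Values after ± are standard errors of a limma fit with 2 arrays for the comparison. Their spread is estimated over all 8 arrays, so they do not measure the gap between the 2 parental arrays alone. A gene is said to have risen or fallen when its Benjamini-Hochberg adjusted p over all 5343 genes was under 0.05. The labels call the 2 arrays biological duplicates, and the number of arrays limits the precision. The authors' deposited column for this comparison has the opposite sign to the scanner ratios across genes (r = -0.951) and on all 10 spike-in probes; the direction used here is that of the dyes in the labels.

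Of the 5343 genes, 1679 (31.4%) were higher in glycerol and 1631 (30.5%) were lower, and 685 (12.8%) were higher and 496 (9.28%) lower by 2-fold or more. The middle of the distribution lay near 0, with a median of -0.01, a 5th percentile of -1.33 and a 95th percentile of 1.80. Both arrays ranked genes alike, with a correlation of 0.953 across genes, which are not independent replicates, and a median SD between arrays of 0.15. The split between directions depends on where 0 is set. Centring each array on its median spot put 1136 genes higher and 1873 lower. Centring on the spike-in RNA moved the median gene by -0.73 and put 420 higher and 2905 lower, so a gene below 0.73 on the scale used here is below 0 on that one. The spike-in probes themselves differed between the arrays, by 1.12 and 0.35 from the mean of all 8 arrays. On the raw scale the median gene was at -0.60 on the first array and -1.83 on the second. All directions below are therefore relative to the average gene of the same cells. Without the first array 1157 genes were called higher and 1089 lower, and without the second 1373 and 1275. Leaving out an array changed the leading count of some lists by more than 1.5 times. For these, that count or the list median without the array is given.

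**Figure D1:**
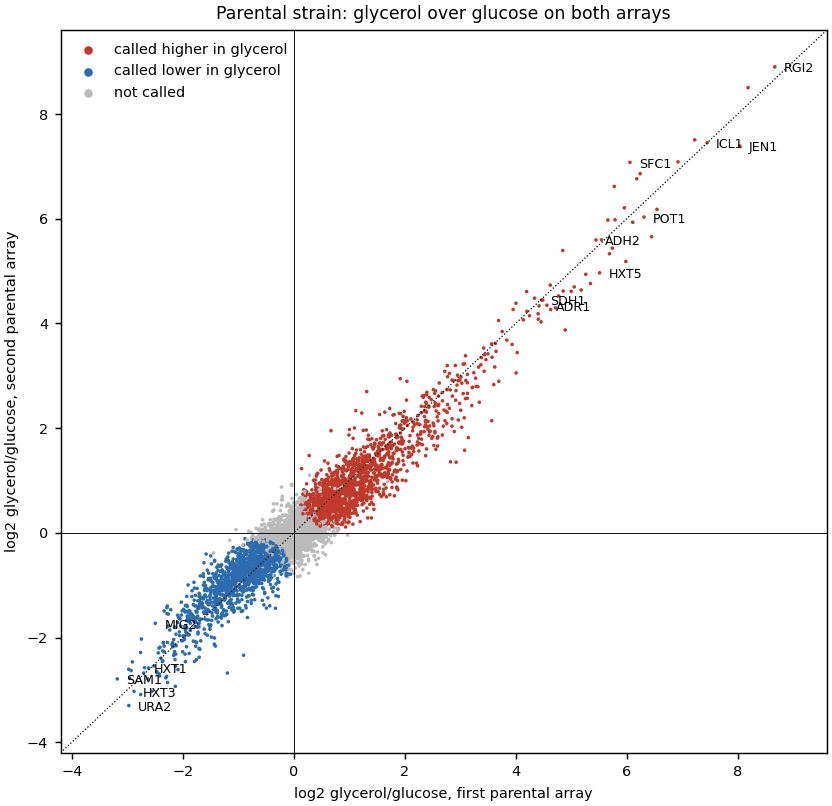
Log2 glycerol over glucose of 5343 genes on the first parental array (horizontal axis) and the second (vertical axis). Red points were called higher, blue points lower, and the dotted line marks equal values; the genes furthest from 0 lie along that line, up to 8.78 for RGI2 and down to -3.13 for URA2.

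The strain was checked against genes that BY4741 is known to lack. Signal for URA3, LEU2 and HIS3 was not well above background in either channel on any of the 2 arrays. On the arrays of the mutant's glycerol response URA3 was well above background in both channels of both arrays. The strains thus differ in URA3 signal too. MET17, the sulfhydrylase that BY4741 also lacks, went against the label: it was well above background in both channels of both arrays, with ratios of -2.44 and -2.29. Whether the probe reads another transcript was not tested. Markers of mating type were dim. Of the genes used by a cells, STE6 was well above background in both channels of both arrays, STE2 on both arrays in glucose and in neither in glycerol, and BAR1 in none. SAG1, used by alpha cells, was well above background in both channels of both arrays and the alpha factor gene MF(ALPHA)2 in none. The other markers checked, of both mating types, were well above background on 1 or 2 glucose arrays and on at most 1 glycerol array. The strain is called parental here.

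Carriers and enzymes for small carbon compounds were among the 25 highest ratios, beside genes of other or unknown function. JEN1, the permease for lactate and pyruvate, had 8.04 and 7.39 on the arrays, a fit of 7.71 ± 0.17 (limma adjusted p = 4.5e-08). ADY2, an acetate transporter, had 8.19 and 8.50. Isocitrate lyase, ICL1, the first enzyme of the glyoxylate bypass, had 7.45 and 7.45, and the 2 arrays differed less than their median SD. ACH1, which transfers coenzyme A between acetate and succinate, had 7.22 and 7.51. All 4 transcripts were flagged as above background in glucose too. For ADY2 that glucose signal was dim, at 6.425 and 5.486 log2 units on the arrays against 7.345 and 8.016 for JEN1. The ADY2 ratio was 9.428 and 10.45 with the scanner's processed signals, so its size depends on the processing. Transcripts of 3 uncharacterised or poorly described loci stood among the 25 highest: YGR067C with 6.08 ± 0.24, YBR116C with 5.88 ± 0.24 and YNL195C with 5.59 ± 0.26. The same set held PDH1, a prpD homologue linked to propionate use, at 5.58 ± 0.24 and BOP2, of unknown function, at 5.57 ± 0.10. PHM7, a membrane protein first described among phosphate-responsive genes, had 5.51 ± 0.16.

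The lowest ratios were less extreme than the highest. URA2, the first enzyme of pyrimidine synthesis, had -2.97 and -3.30 on the arrays, a fit of -3.13 ± 0.14 (limma adjusted p = 1.5e-06). SAM1, S-adenosylmethionine synthetase, had -3.18 and -2.79. HXT3, a low-affinity glucose transporter, had -2.88 and -3.03. SSB1 and SSB2, chaperones bound to translating ribosomes, had -2.92 ± 0.21 and -2.79 ± 0.24, and GLY1, threonine aldolase, had -2.79 ± 0.20. NIT1, a nitrilase, had -2.56 ± 0.16. Each of these genes was on the same side of 0 on both arrays.

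Regulators of carbon source use changed at the transcript level themselves. Of 15 transcriptional activators of non-fermentative growth, 8 rose and 2 fell, with a median of 0.76 against -0.01 over all genes. ADR1, the activator of alcohol, glycerol and peroxisomal genes, had 4.56 and 4.35, a fit of 4.46 ± 0.20 (limma adjusted p = 1.5e-06). CAT8, the activator of gluconeogenesis, had 4.34 and 4.48. HAP4, the regulated activation subunit of the Hap complex, had 2.82 and 2.73, while the DNA-binding subunits differed: HAP2 had 0.87 ± 0.15, and HAP3 and HAP5 were not called at -0.13 ± 0.17 and -0.20 ± 0.14. USV1 and RSF1, zinc-finger proteins needed for growth on glycerol, had 2.61 ± 0.33 and 1.43 ± 0.12. SIP4, a partner of Cat8 at gluconeogenic promoters, had 1.62 ± 0.14 with glucose signal well above background on 1 of 2 arrays. Going the other way, PIP2, the oleate-responsive partner of Oaf1, had -0.95 and -1.502 and a fit of -1.22 ± 0.16, while OAF1 was not called at -0.06 ± 0.10.

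Among 19 genes of glucose repression and sensing, 9 rose and 3 fell, against 31.4% and 30.5% of all genes. REG2, a regulatory subunit of the Glc7 phosphatase that acts on Snf1, had 4.49 and 4.45, with both arrays far above its paralogue REG1 at 0.54 ± 0.17, which was below 0 after spike-in centring. The 3 paralogous repressors parted: MIG1 had 1.51 ± 0.16, whereas MIG2 had -2.495 and -1.73 with a fit of -2.11 ± 0.19, and MIG3 had -1.83 ± 0.26. The glucose sensors parted too, with SNF3, the sensor of low glucose, at 1.55 ± 0.16 and RGT2, the sensor of high glucose, at -0.16 ± 0.12 and not called. RGT1, which represses hexose transporter genes, had 1.07 ± 0.11, and NRG1 had 1.17 ± 0.17. GLC7, the phosphatase itself, had 1.87 and 0.997, a wide gap between arrays with both above 0.

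The Snf1 complex held 8 genes, of which 4 rose and 1 fell, against 31.4% and 30.5% of all genes. Its 3 alternative beta subunits, which direct the kinase to different parts of the cell, did not move together: SIP2 had 1.75 and 1.74 with a fit of 1.75 ± 0.15, SIP1 had 0.33 ± 0.12, below 0 after spike-in centring, and GAL83 had -0.30 ± 0.10. The Ras and protein kinase A list had 13 of 20 genes higher and 1 lower, against 31.4% and 30.5% of all genes. Its median of 0.59 became -0.145 after spike-in centring. BCY1, the inhibitory subunit of protein kinase A, had 2.71 and 2.35 and the highest fit of the list at 2.53 ± 0.13. Of the catalytic subunits, TPK2 had 1.74 ± 0.20 and TPK3 was not called at -0.35 ± 0.15. GIS1 and RIM15, which carry the nutrient signal to late-growth genes, had 1.87 ± 0.20 and 1.005 ± 0.11. RAS2 and GPA2, GTP-binding proteins upstream of adenylate cyclase, had 1.59 ± 0.20 and 1.46 ± 0.24, while RAS1 was not called at 0.12 ± 0.13. PDE2, the high-affinity phosphodiesterase that degrades cyclic AMP, was the one gene of the list that fell, at -0.92 ± 0.15.

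**Figure D2:**
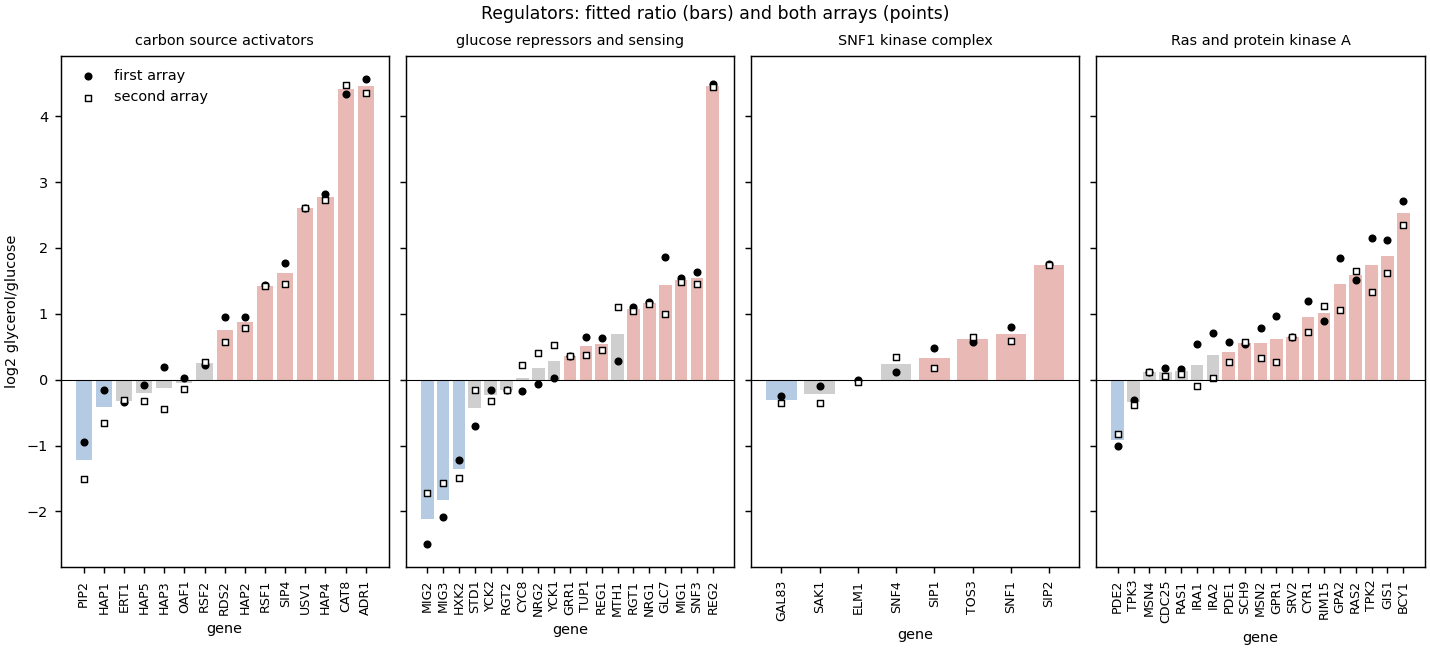
Log2 glycerol over glucose of genes in 4 regulator lists (vertical axis); bars give the fitted ratio, red where called higher, blue where called lower and grey where not called, and points give each array. ADR1, CAT8 and REG2 stand above 4 on both arrays, and MIG2, MIG3, HXK2 and PIP2 stand at the lower end.

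Transport of small acids into cells and mitochondria held the highest list median, 6.02, with 5 of 7 genes higher. Beside JEN1 and ADY2, ATO2, an acetate and ammonium transporter, had 6.11 and 5.93 and ATO3 had 2.08 ± 0.18. The mitochondrial pyruvate carrier is built from Mpc1 with either Mpc2 or Mpc3. MPC3 had 6.18 and 6.76 and a fit of 6.47 ± 0.39, while MPC1 and MPC2 were not called, at 0.43 ± 0.17 and 0.38 ± 0.23. The carnitine shuttle, which carries acetyl units into mitochondria, rose in all 5 members: YAT1 with 6.55 ± 0.18, CRC1 with 6.36 ± 0.16, CAT2 with 5.05 ± 0.20, YAT2 with 4.29 ± 0.19 and AGP2, the plasma membrane carnitine transporter, with 2.20 ± 0.21.

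Of 12 genes for the glyoxylate cycle and gluconeogenesis, 11 rose, with a median of 3.49. MLS1, malate synthase, had 5.78 and 6.62, and SFC1, the carrier that exchanges cytosolic succinate for mitochondrial fumarate, had 6.06 and 7.08. CIT2, peroxisomal citrate synthase, had 4.91 ± 0.17 and IDP2, cytosolic isocitrate dehydrogenase, 4.24 ± 0.14. FBP1 and PCK1, the key enzymes of gluconeogenesis proper, had lower ratios, 2.74 ± 0.14 and 2.51 ± 0.36. The one gene of the list that fell was DAL7, a second malate synthase that belongs to allantoin use, at -1.51 ± 0.19.

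Glycerol's own genes were only partly measured. GUT2, the mitochondrial glycerol 3-phosphate dehydrogenase, had 3.69 and 2.90 and a fit of 3.29 ± 0.22 (limma adjusted p = 9.7e-06). Its partner GUT1, glycerol kinase, was too dim to test, well above background on 1 glycerol array and on neither glucose array. STL1, the glycerol symporter, was not well above background in either channel on either array. YIG1, a protein linked to glycerol synthesis, had 5.66 and 5.97. GCY1, an aldo-keto reductase placed in an alternative route of glycerol use, had 2.90 ± 0.19. In the opposite direction of flux, the glycerol 3-phosphatases GPP1 and GPP2 fell, with -1.23 ± 0.22 and -1.23 ± 0.24, and the glycerol 3-phosphate dehydrogenases of synthesis parted, GPD1 at 1.07 ± 0.15 and GPD2 at -0.68 ± 0.09.

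The steps between pyruvate, ethanol, acetate and acetyl-CoA had 11 of 24 genes higher and 9 lower, against 31.4% and 30.5% of all genes. ADH2, the dehydrogenase that oxidises ethanol, had 5.45 and 5.59, and ADH1, which forms it, had -0.86 ± 0.12. ADH5 had -2.22 ± 0.10. Of the aldehyde dehydrogenases, ALD4, the main mitochondrial one, had 4.88 ± 0.18, ALD6, the main cytosolic one, 3.36 ± 0.17, and ALD5, a minor mitochondrial one, -1.65 ± 0.20. ACS1, acetyl-CoA synthetase of respiring cells, had 4.45 ± 0.15 and ACS2 -0.34 ± 0.12. PDC1, the main pyruvate decarboxylase, had -0.60 ± 0.14. PDB1, a subunit of pyruvate dehydrogenase, fell to -0.89 ± 0.23, while PDA1 and LAT1, its other catalytic subunits, rose with 1.31 ± 0.12 and 1.45 ± 0.12.

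The citrate cycle rose in 15 of 17 genes, with a median of 2.42. SDH1, the flavoprotein of succinate dehydrogenase, had 4.46 and 4.45 with a fit of 4.46 ± 0.23, above the complex's other subunits SDH2, SDH3 and SDH4 at 2.85 ± 0.31, 2.85 ± 0.14 and 3.04 ± 0.14. All 3 citrate synthases rose, and CIT3, a minor mitochondrial form, had the highest ratio, 5.10 ± 0.16, against 3.53 ± 0.24 for CIT1. MDH1, malate dehydrogenase of the mitochondrion, had 3.46 ± 0.11. ACO1, aconitase, had 2.09 ± 0.29. Succinyl-CoA ligase was uneven, with LSC2 at 1.22 ± 0.17 and LSC1 not called at -0.13 ± 0.19.

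Electrons enter the chain of this yeast through single-protein NADH dehydrogenases and through glycerol 3-phosphate, lactate and succinate dehydrogenases. Of 8 such enzymes other than succinate dehydrogenase, 7 rose. The external NADH dehydrogenases NDE2 and NDE1 had 3.40 ± 0.16 and 1.49 ± 0.15, the internal NDI1 2.59 ± 0.22, and the lactate dehydrogenases DLD1 and CYB2 1.39 ± 0.21 and 0.84 ± 0.28. DLD2 was not called, at -0.09 ± 0.11. Complex III and cytochrome c rose in 12 of 15 genes. Its structural subunits lay in a narrow band, from 2.05 ± 0.31 for QCR9 to 2.92 ± 0.15 for QCR7. Of the 4 assembly factors on the list CBP4 rose at 1.84 ± 0.26, CBP6 and CBP3 were not called at 0.33 ± 0.14 and -0.12 ± 0.13, and BCS1 fell at -0.66 ± 0.10. Cytochrome c oxidase and its assembly factors had 20 of 25 genes higher and none lower. The subunits COX7, COX13 and COX4 had 3.48 ± 0.22, 3.15 ± 0.16 and 2.995 ± 0.32, and the assembly factors COX20 and PET100 2.13 ± 0.14 and 1.97 ± 0.17. The 5 not called were the subunit isoform COX5B and the assembly factors COX15, COX18, COX19 and SHY1, the last at 0.26 ± 0.12. ATP synthase rose in 18 of 21 genes. STF2 and STF1, which act on the inhibitor of the enzyme, had 3.29 ± 0.25 and 2.98 ± 0.30, and the catalytic subunit ATP2 had 2.45 ± 0.11. ATP23, which processes a mitochondrially made subunit, fell at -0.38 ± 0.12.

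Of 16 probes for mitochondrially encoded genes only 7 could be tested, since the other 9, including VAR1 and ATP8, were too dim. All 7 tested were called higher, but 4 of them without the first array, 3 without the second and 1 in an indirect estimate from the other 6 arrays. OLI1, the ring subunit of ATP synthase, had 2.04 and 2.89, COB, cytochrome b, 1.31 and 2.70, and ATP6 0.99 and 1.87. The 3 core oxidase subunits had lower values, 1.12 ± 0.30 for COX1, 0.96 ± 0.19 for COX3 and 0.71 ± 0.19 for COX2, the last of which lay at or below 0 after spike-in centring. How the labelling reaction, which in such kits usually starts at poly(A) tails, read these transcripts was not tested.

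Carriers of the inner membrane and the pores of the outer one had 12 of 25 genes higher and 9 lower, against 31.4% and 30.5% of all genes. Among those that rose, PET9, the main ATP/ADP carrier, had 2.33 ± 0.30, AAC1 1.58 ± 0.19, MIR1, the phosphate carrier, 1.35 ± 0.13, and POR1, the outer membrane pore, 2.17 ± 0.18. Among those that fell, GGC1, the GTP/GDP carrier, had -2.28 and -2.09, ORT1, the ornithine carrier, -2.12 and -1.94, OAC1, the oxaloacetate carrier, -1.79 ± 0.20, and CTP1, the citrate carrier, -1.16 ± 0.10. The 2-oxodicarboxylate carriers ODC1 and ODC2 parted, at 2.60 ± 0.10 and -1.14 ± 0.21. The import machinery had 12 of 33 higher and 4 lower, against 31.4% and 30.5% of all genes. Its median was 0.18, with 0.12 without the first array and 0.23 without the second. MIA40, the receptor of the intermembrane space, had 1.90 ± 0.21 and its sulfhydryl oxidase ERV1 -1.25 ± 0.11; MAS2, a subunit of the processing peptidase, had -1.08 ± 0.10 with its partner MAS1 not called at -0.03 ± 0.10.

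Haem and ubiquinone synthesis were mixed. HMX1, haem oxygenase, and HEM15, ferrochelatase, had 2.42 ± 0.11 and 2.13 ± 0.28, and HEM13, the oxygen-dependent step, had -0.73 ± 0.11 beside a rise of its repressor ROX1 to 1.52 ± 0.15. Of 11 ubiquinone genes 5 rose and 1 fell, against 31.4% and 30.5% of all genes. COQ4 and COQ5 led the rise at 1.39 ± 0.14 and 1.33 ± 0.20, and COQ11 fell at -0.57 ± 0.16.

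On the side of sugar use, 8 of 18 hexose transporters could be tested and the rest were not well above background. HXT1, HXT2, HXT3 and HXT4 fell, with -2.63 ± 0.49, -2.52 ± 0.39, -2.95 ± 0.11 and -2.53 ± 0.27. HXT5, the transporter of slow-growing cells, had 5.51 and 4.97 and a fit of 5.24 ± 0.30. The near-identical high-affinity transporters HXT6 and HXT7 were not called, with arrays at 0.27 and -0.50 and 0.52 and -0.27; whether their probes share signal was not tested. Among the kinases that trap hexose, HXK2 had -1.21 and -1.49, whereas HXK1 had 2.06 and 1.44, GLK1 2.85 and 2.18 and EMI2 1.97 and 1.48.

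Glycolysis fell in 13 of 19 genes and rose in 3. The lowest were TDH3, glyceraldehyde phosphate dehydrogenase, at -2.53 ± 0.23, and the enolases ENO2 and ENO1 at -2.12 ± 0.22 and -1.94 ± 0.15. PFK2 and PFK1, the subunits of phosphofructokinase, had -1.76 ± 0.14 and -1.105 ± 0.23. The 3 that rose were PFK26 at 1.49 ± 0.13, which makes the activator fructose 2,6-bisphosphate, FBP26 at 0.83 ± 0.14, which removes it, and GPM2 at 1.31 ± 0.17, a non-functional homologue of phosphoglycerate mutase. In the pentose phosphate pathway the paralogues of the growth enzymes rose while the main forms did not: TKL2 had 4.85 and 5.39 and TKL1 -1.84 and -1.22, NQM1 had 3.46 ± 0.23 and TAL1 -0.31 ± 0.16, and SOL4 had 3.62 ± 0.24 and SOL3 -0.38 ± 0.10. The first enzyme of the pathway, ZWF1, had 1.44 ± 0.18.

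Peroxisomal fatty acid oxidation rose in 15 of 18 genes with 1 lower, although no fatty acid was supplied per the labels. CTA1, peroxisomal catalase, had 4.14 and 4.07, SPS19, a dienoyl-CoA reductase, 2.997 ± 0.17, ECI1, an isomerase, 2.88 ± 0.11, and PXA1, a subunit of the fatty acyl transporter of the peroxisome, 2.82 ± 0.17. ANT1, the peroxisomal ATP carrier, was the exception at -0.88 ± 0.16. The genes that build peroxisomes had 14 of 27 higher, 9 without the first array, and 3 lower. The shares of all genes were 31.4% and 30.5%, and the median of this list, 0.43, became -0.303 after spike-in centring. PEX30 and PEX22 had 2.05 ± 0.13 and 1.51 ± 0.16, and PEX21, a co-receptor for import, fell at -0.95 ± 0.16. Its counterpart PEX18 rose and was not well above background in glucose on either array.

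**Figure D3:**
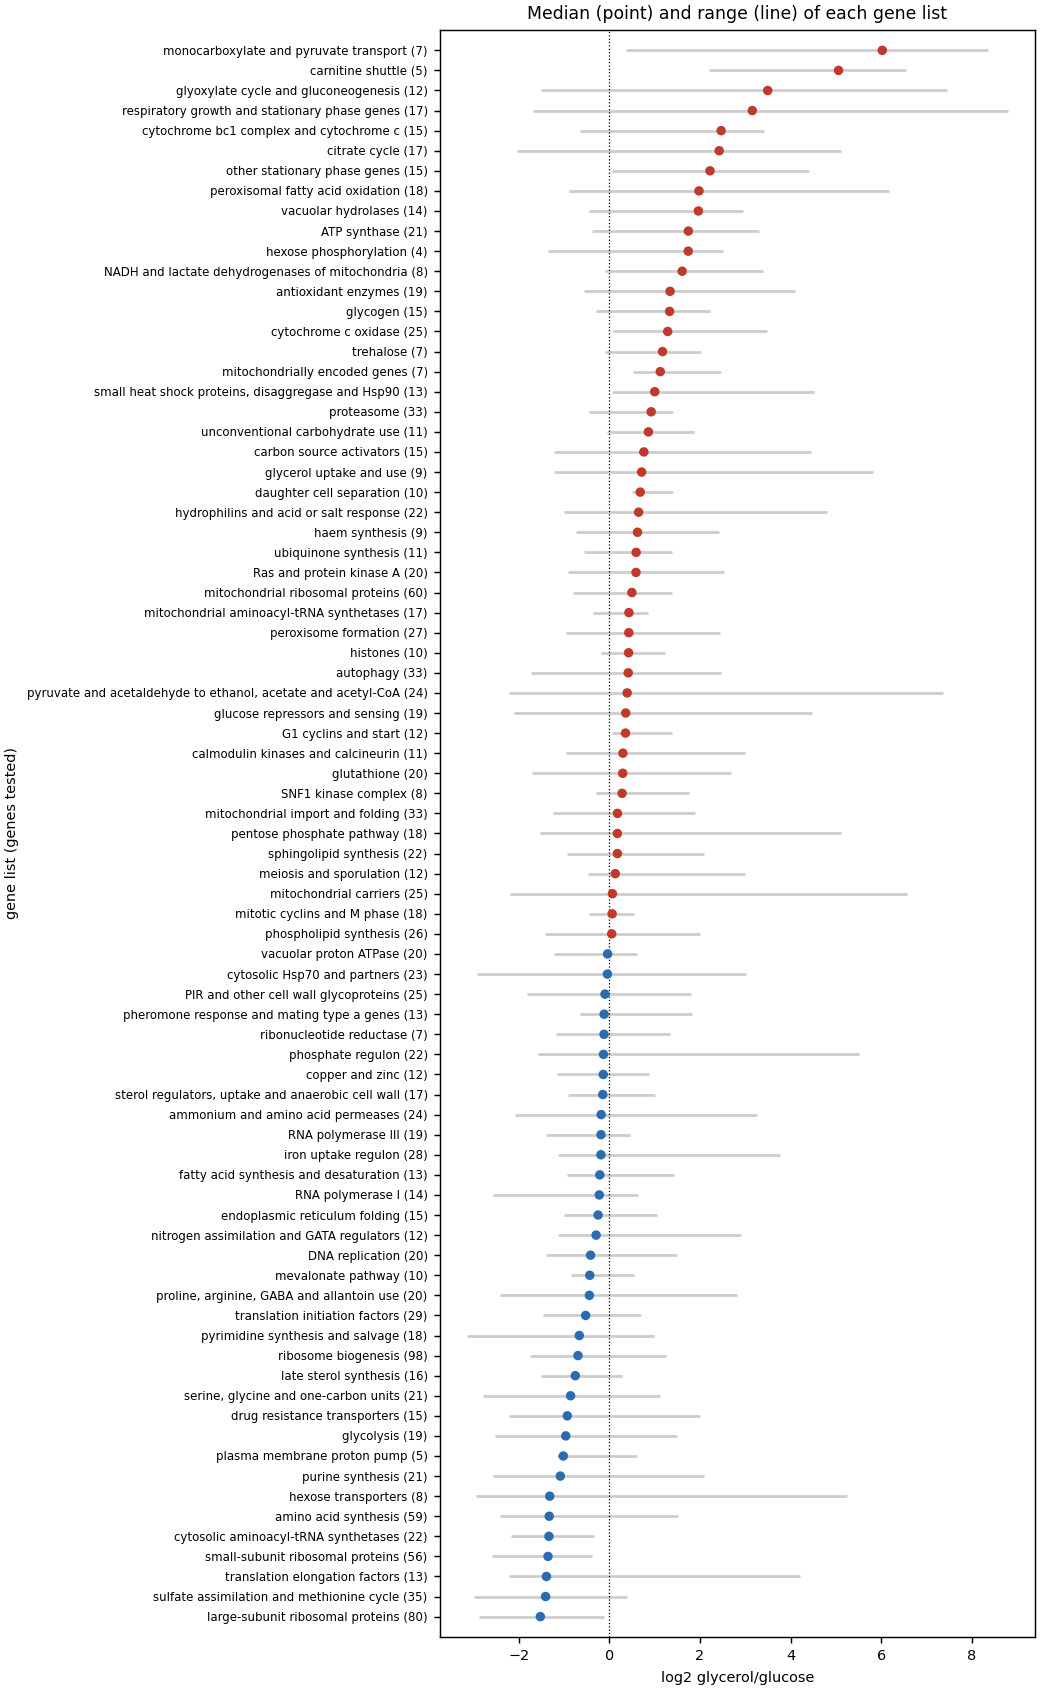
Median (point) and range (line) of log2 glycerol over glucose in 79 gene lists, with the number of genes tested in brackets; red medians lie above the median of all genes (dotted line, -0.01) and blue ones below it. Transport of small acids, the carnitine shuttle and the glyoxylate cycle stand at the top, and ribosomal proteins of both subunits at the bottom.

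Of the storage and stress genes, those for glycogen rose in 12 of 15, 7 without the first array, among them the debranching enzyme GDB1 at 2.23 ± 0.17, its inhibitor IGD1 at 2.04 ± 0.18 and the synthase GSY1 at 1.78 ± 0.27. Trehalose genes rose in 6 of 7; the vacuolar trehalase ATH1 had 2.03 ± 0.20, the synthase TPS1 1.76 ± 0.17, and the neutral trehalase NTH1 was not called at -0.09 ± 0.16. Of 17 genes named for respiratory growth and stationary phase 14 rose, including SPG4 with 6.05 ± 0.58, FMP16 with 4.68 ± 0.16 and the outer membrane proteins OM45 and OM14 with 4.65 ± 0.28 and 4.24 ± 0.17. SPG1 had 7.004 ± 0.37 with glucose signal well above background on 1 of 2 arrays. The 3 that fell were SNO1, FMP23 and SNZ1, at -1.68 ± 0.15, -0.77 ± 0.10 and -0.66 ± 0.14; Sno1 and Snz1 make vitamin B6. Of 15 further stationary phase genes 14 rose, led by PAI3, an inhibitor of proteinase A, at 4.40 ± 0.23 and MSC1 at 4.38 ± 0.27.

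Chaperone genes went in both directions. The small heat shock protein HSP26 had 4.72 and 4.30, the membrane-stabilising HSP12 4.85 and 4.62, and GRE1, a hydrophilin, 4.998 and 4.61. Of the cytosolic Hsp70 genes SSA3 and SSA4, the stress-induced forms, had 3.005 ± 0.22 and 1.17 ± 0.14; SSA1 was not called at 0.27 ± 0.17 and SSA2, a constitutive form, had -1.97 ± 0.18. The ribosome-bound system fell, with SSB1, SSB2, ZUO1 at -0.93 ± 0.15 and SSZ1 at -0.59 ± 0.20. In the endoplasmic reticulum, 6 of 15 folding genes fell and 3 rose, against 30.5% and 31.4% of all genes. ERO1, the thiol oxidase, had -0.99 ± 0.18 and MPD1 1.05 ± 0.17. Antioxidant enzymes rose in 14 of 19: SOD2, superoxide dismutase of the mitochondrion, had 3.69 and 4.06, CTT1, cytosolic catalase, 3.56 ± 0.16, and AHP1, a peroxiredoxin, 3.25 ± 0.16, while GPX2 fell at -0.55 ± 0.11 and SKN7, a regulator, at -0.40 ± 0.13. The glutathione list had 10 higher and 7 lower of 20, against 31.4% and 30.5% of all genes; GRX2 had 2.68 ± 0.19 and GRX4, a glutaredoxin of iron sensing, -1.70 ± 0.21, and the synthesis enzymes GSH1 and GSH2 had -0.72 ± 0.10 and -0.49 ± 0.10.

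Genes of protein breakdown were mostly higher. The proteasome rose in 29 of 33 genes, 17 without the first array, and fell in none, with a median of 0.92 that was 0.19 after spike-in centring; RPN10 and RPT6 had 1.41 ± 0.13 and 1.38 ± 0.19. Vacuolar hydrolases rose in 11 of 14. APE3, an aminopeptidase, had 2.94 ± 0.12, the carboxypeptidase PRC1 2.37 ± 0.17 and the master protease PEP4 2.001 ± 0.15, beside the inhibitors PBI2 at 2.75 ± 0.23 and TFS1 at 2.42 ± 0.16; PHO8, vacuolar alkaline phosphatase, fell at -0.44 ± 0.11. Autophagy genes rose in 19 of 33, 12 without the first array, and fell in 5. The shares of all genes were 31.4% higher and 30.5% lower, and the autophagy median of 0.42 became -0.315 after spike-in centring. ATG34, a receptor for alpha-mannosidase, had 2.53 and 2.41, and ATG39, a receptor for the nuclear envelope, 2.24 ± 0.21. ATG8, the ubiquitin-like coat protein, had 1.99 ± 0.17, and ATG17, a scaffold, 1.54 ± 0.11. Members that fell included ATG41 with -1.76 and -1.70, ATG13, the regulatory subunit of the Atg1 kinase, with -0.78 ± 0.13, and the lipid kinase VPS34 with its partner VPS15, at -0.53 ± 0.10 and -0.38 ± 0.12; the kinase ATG1 had -0.35 ± 0.12, with glycerol signal well above background on 1 of 2 arrays.

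Of the proton pumps, the plasma membrane pump PMA1 had -0.65 and -0.92, its minor form PMA2 -1.02 ± 0.18, and its small regulatory proteins PMP1 and PMP2 -1.15 ± 0.20 and -1.11 ± 0.24; HSP30, an inhibitor of the pump, was not called with arrays at 0.96 and 0.25. Of 20 genes for the vacuolar proton ATPase 7 fell, near the 30.5% of all genes, and 3 rose; without the second array the counts were 3 and 0. Its membrane subunit exists in a vacuolar form, VPH1, at -1.23 ± 0.19, and a Golgi form, STV1, not called at 0.31 ± 0.12. The list of hydrophilins and genes of acid or salt response had 11 of 22 higher and 6 lower, against 31.4% and 30.5% of all genes. Of its targets known for weak acid stress, PDR12, the weak acid pump, had -1.004 ± 0.14 and YRO2 -0.83 ± 0.30. TPO2 and TPO3 were not called, at 0.04 ± 0.32 and 0.14 ± 0.23.

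Genes of cytosolic protein synthesis were mostly lower. Among ribosomal proteins 78 of 80 of the large subunit and 56 of 56 of the small subunit fell, with medians of -1.52 and -1.35, and none rose. RPL41B was not called, at -0.18 ± 0.11. RPS9A, RPS4A and RPS18B of the small subunit had -2.60 ± 0.29, -2.57 ± 0.21 and -2.56 ± 0.17. Duplicated ribosomal genes were mostly alike, as in RPL8A and RPL8B at -2.31 ± 0.17 and -2.28 ± 0.21, but RPL15A had -1.25 ± 0.19 and RPL15B -0.12 ± 0.13. Ribosome biogenesis factors fell in 73 of 98, 36 without the first array and 33 in the indirect estimate, with NSR1, nucleolin, at -1.75 ± 0.23; RIO1, a kinase of late small-subunit maturation, rose at 1.25 ± 0.11, and LOC1 had 0.51 ± 0.18, which was below 0 after spike-in centring.

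In the list of RNA polymerase I, which copies ribosomal RNA genes, 5 of 14 genes fell, near the 30.5% of all genes. The list median was -0.22, with -0.14 without the first array and -0.34 without the second. RPA190 had -2.46 and -2.67 and a fit of -2.57 ± 0.12 (limma adjusted p = 1.6e-06), and RPA135, the second-largest subunit, had -1.56 and -1.30, while RPA12, RPA14 and RPA34 were not called, at -0.36 ± 0.14, -0.22 ± 0.14 and 0.21 ± 0.20. Of RNA polymerase III the largest subunit, RPO31, was not called at -0.02 ± 0.12, and the second, RET1, had -1.40 ± 0.11. RPC19, shared by both enzymes, had -1.27 ± 0.12. Translation elongation factors fell in 9 of 13; EFT1 and EFT2, 2 copies of elongation factor 2, had -2.21 ± 0.22 and -1.53 ± 0.25, and TEF1 and TEF2 -1.94 ± 0.32 and -1.62 ± 0.31. The list had 2 members that rose by more than 2-fold: HEF3, a paralogue of elongation factor 3, had 4.25 and 4.15, and HYP2, the aerobic form of eIF5A, had 1.84 and 1.88. The main elongation factor 3, YEF3, had -1.79 and -1.06. Initiation factors fell in 16 of 29, with SUI2 and DED1 at -1.47 ± 0.13 and -1.45 ± 0.27, and EAP1, an inhibitor of cap-dependent initiation, rose at 0.71 ± 0.10, which was below 0 after spike-in centring.

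Most tRNAs are charged by separate enzymes in the cytosol and in mitochondria. All 22 cytosolic genes fell, from -0.34 ± 0.13 for GLN4 to -2.18 ± 0.13 for MES1, methionyl-tRNA synthetase, with a median of -1.33. Of 17 mitochondrial genes 12 rose, 6 without the first array, and 1 fell, with a median of 0.43; MSR1, for arginine, had 0.85 ± 0.12 and MSW1, for tryptophan, -0.35 ± 0.13. The mitochondrial ribosome likewise had 36 of 60 genes higher and 1 lower, with MRP20 at 1.37 ± 0.11, MRPS12 at 1.25 ± 0.21 and RSM22 at -0.80 ± 0.14. After spike-in centring both mitochondrial medians were below 0, at -0.30 and -0.23, so their rise is relative to the average gene. The 0 of that centring is the mean spike-in level over all arrays of the series. The parental arrays lay 1.12 and 0.35 from that mean, and these genes were not compared with the spike-in RNA itself. No test of cytosolic against mitochondrial lists was made.

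Amino acid synthesis fell in 49 of 59 genes, with a median of -1.33. ARO4, the first step towards aromatic amino acids, had -2.37 and -2.46, TRP5 -2.25 ± 0.17, LYS2 -2.25 ± 0.16 and HIS4 -2.16 ± 0.13. GCN4, the activator of these genes, was not called at the transcript level, 0.24 ± 0.15. The 2 genes that rose each have a partner that fell: BAT2, the cytosolic branched-chain aminotransferase, had 1.51 ± 0.21 and the mitochondrial BAT1 -1.11 ± 0.22, and LEU4, which was below 0 with median centring, had 0.85 ± 0.21 and LEU9 -2.01 ± 0.20. Sulfate assimilation and the methionine cycle fell in 26 of 35. MET6, methionine synthase, had -2.63 and -2.79, and MET10 and STR3 had -2.69 ± 0.14 and -2.69 ± 0.14. In that list 2 genes rose, with MET4, the transcriptional activator of the pathway, at 0.39 ± 0.12 and MHT1, a methyltransferase, at 0.37 ± 0.14, both below 0 after spike-in centring.

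One-carbon metabolism fell in 16 of 21, 10 without the first array. Glycine cleavage, GCV2 at -2.78 ± 0.16 and GCV1 at -1.79 ± 0.14, moved with GLY1 and with SER33, the first enzyme of serine synthesis, at -2.14 ± 0.11. Its paralogue SER3 was not called at 0.17 ± 0.11. AGX1, which makes glycine from glyoxylate, rose instead, with 1.105 and 0.97. Purine synthesis fell in 18 of 21. ADE17 had -2.42 and -2.73, ADE6 -2.16 ± 0.16, ADE8 -2.04 ± 0.11 and the activator BAS1 -1.98 ± 0.15. The isoenzyme ADE16 was not called, at 0.20 ± 0.11, and YNK1, nucleoside diphosphate kinase, rose at 2.10 ± 0.16. In pyrimidine synthesis URA2 stood apart from the later steps, URA1 at -0.80 ± 0.14, URA4 at -0.68 ± 0.10 and URA5 at -1.05 ± 0.15; FCY2, a purine and cytosine permease, had -1.96 ± 0.18, and URA10, the minor form of the fifth enzyme, rose at 0.99 ± 0.19. RNR1, the large subunit of ribonucleotide reductase, had -1.17 ± 0.13 and its protein inhibitor SML1 1.34 ± 0.12.

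Nitrogen genes went in both directions. All 3 ammonium transporters fell, MEP2 with -1.71 and -2.21, MEP3 with -1.80 ± 0.13 and MEP1 with -1.25 ± 0.17, as did the arginine permease CAN1, with -1.75 and -2.42. The proline permease PUT4 had 3.43 and 3.09, DIP5, for acidic amino acids, 1.85 ± 0.13, and GNP1, for glutamine, 1.74 ± 0.13. Both copies of glutamate dehydrogenase that make glutamate differed, with GDH3 at 2.90 ± 0.15 and GDH1 not called at -0.07 ± 0.22; GDH2, which degrades glutamate, had 1.39 ± 0.14. Use of arginine, proline and GABA rose in part, GAD1 with 2.82 ± 0.30, CAR2 with 1.82 ± 0.10 and PUT1 with 1.20 ± 0.26, whereas the allantoin and urea genes fell, DUR12, urea amidolyase, with -2.40 ± 0.17, DAL3 with -1.84 ± 0.23 and DUR3, the urea transporter, with -1.66 ± 0.13. The GATA activators GLN3 and GAT1 had -1.13 ± 0.13 and -0.72 ± 0.16, and the repressor DAL80 was not called at -0.19 ± 0.18.

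Lipid synthesis was lower in sterols and uneven elsewhere. Of 16 late sterol genes 11 fell, with ERG7, lanosterol synthase, at -1.500 ± 0.16, ERG1, squalene epoxidase, at -1.24 ± 0.10 and ERG5 at -1.38 ± 0.12. In the mevalonate pathway 5 of 10 tested genes fell, against 30.5% of all genes. The HMG-CoA reductases parted, HMG1 with -0.76 and -0.74 and HMG2 with 0.62 and 0.46, the latter below 0 after spike-in centring. ERG12 itself was too dim to test here, well above background on 1 glycerol and 2 glucose arrays. Fatty acid synthase fell, FAS1 at -0.87 ± 0.12 and FAS2 at -0.58 ± 0.14, while ACC1, acetyl-CoA carboxylase, rose at 1.57 and 1.29 on the arrays. Phospholipid genes had 8 of 26 higher, 5 without the first array, and 7 lower, near the shares of all genes. GPT2, the first acyltransferase, had 1.998 ± 0.17, CHO1, phosphatidylserine synthase, 1.54 ± 0.17, and PAH1, phosphatidate phosphatase, 1.53 ± 0.35; CPT1 and PSD1, late steps to phosphatidylcholine and phosphatidylethanolamine, had -1.41 ± 0.13 and -1.13 ± 0.20. SUR1, a mannosyltransferase of sphingolipids, had 2.10 ± 0.16.

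In the iron regulon 6 of 28 rose, 2 without the first array, and 6 fell, below the shares of all genes. FIT2, a cell wall mannoprotein that retains siderophore iron, had 3.84 and 3.68 while FIT3 and FET3 were not called, at -0.08 ± 1.37 and -1.14 ± 0.72. Phosphate transporters PHO84 and PHO90 had -1.44 ± 0.30 and -1.57 ± 0.14, and PHO89, the sodium-coupled one, 0.81 ± 0.23. Zinc transporters ZRT2 and ZRT1 had -1.16 ± 0.15 and -0.86 ± 0.12. Of 15 drug transporters and regulators 9 fell, against 30.5% of all genes, with ATR1, PDR5 and AQR1 at -2.21 ± 0.16, -1.92 ± 0.24 and -1.70 ± 0.11, but PDR10 and PDR15 rose at 1.99 ± 0.15 and 1.05 ± 0.19. CMK1, a calmodulin-dependent kinase, had 2.77 and 3.19 and CMD1, calmodulin, -0.96 ± 0.20; PMC1, the vacuolar calcium pump, had 2.12 ± 0.19. Glucan and chitin synthases FKS1 and CHS3 fell at -1.81 ± 0.11 and -1.74 ± 0.14, beside a rise of GSC2, the alternative glucan synthase, at 0.87 ± 0.12.

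All 10 genes of daughter cell separation, which are made in the daughter as the bud is released, were called higher, 4 of them without the first array, from 0.51 ± 0.15 for ASH1 to 1.41 ± 0.13 for DSE4, a glucanase. EGT2 had 1.40 and 1.20 and DSE1 1.67 and 0.69, with both arrays above 0. After spike-in centring 6 of the 10 lay below 0, among them ASH1 and the chitinase CTS1 at 0.72 ± 0.18. Mitotic cyclin and M phase genes had 4 of 18 higher and 2 lower, below the background share, and 0 and 1 higher without the first or the second array, while SIC1, the inhibitor of S phase onset, had 1.39 ± 0.13. Replication genes fell in 11 of 20, 6 without the first array, with POL12 at -1.40 ± 0.17 and MCM3 at -0.94 ± 0.10; RFA1 rose at 1.496 ± 0.11. In bulk RNA a change in the share of cells in a phase and a change per cell cannot be told apart.

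Some transcripts were seen in a single carbon source. In glycerol, 23 genes were well above background on both arrays with no such signal in glucose; 18 of them were tested and all 18 had risen, as they had to differ to be listed. The folds named for glycerol are lower bounds, set by the dimmest signal well above background. RGI2, a small protein induced in respiratory growth, was at least 394-fold higher (limma adjusted p = 3.8e-08), with array ratios of 8.67 and 8.90. POT1, the thiolase of peroxisomal oxidation, was at least 59.3-fold higher (limma adjusted p = 3.8e-08). The bounds were smaller for SIP18, a hydrophilin, at least 7.63-fold, PEX18 at least 4.94-fold, PRR2, a kinase, at least 4.41-fold, FAT3, at least 4.16-fold, SDH9, a minor paralogue of SDH1, at least 2.9-fold and NRS1 at least 2.33-fold. The glycerol channel had the lower median signal on both arrays, 276 and 133 against 531 and 743 for glucose. Whether this shaped the counts of genes seen in a single source was not tested. In glucose alone 91 genes were seen, mostly near the detection limit: 56 were tested, 33 had fallen and no bound reached 2-fold. The highest were YLR149C-A at 1.77-fold, IMD2, an enzyme of guanine nucleotide synthesis, at least 1.66-fold and RPL21A at 1.65-fold lower in glycerol. For YLR149C-A and RPL21A the glycerol signal was not dimmer than that limit. Their values are therefore the fitted ratios, -0.82 and -0.72 in log2, and not bounds.

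Paralogues and isoenzymes were also compared in pairs. A list of 92 pairs of paralogues or isoenzymes, some sharing a member, had 91 pairs with both genes tested. In 23 both rose, in 23 both fell, and in 19 (20.9%) one rose and the other fell. With 31.4% of all genes higher and 30.5% lower, opposite calls are common between any 2 genes, and nothing particular to pairs is read from this count. Among the pairs with opposite calls, the widest gaps lay between HXT5 and HXT3, MLS1 and DAL7, TKL2 and TKL1, ADH2 and ADH1, and HEF3 and YEF3, all given above. Pyruvate carboxylase, which makes oxaloacetate, had PYC1 at 2.55 and 2.48 and PYC2 at -1.24 and -1.20. Phosphoglucomutase had PGM2 at 1.87 ± 0.28 and PGM1 at -0.28 ± 0.10. The kinases for fructose 2,6-bisphosphate had PFK26 higher and PFK27 at -1.14 ± 0.14. Pairs in which one member was not called included COX5A at 2.19 ± 0.27 with COX5B at 0.07 ± 0.29, CDC19, the main pyruvate kinase, at -0.93 ± 0.18 with PYK2 at 0.13 ± 0.17, and HYP2 with ANB1 at -0.37 ± 0.22. Among the rising members of opposite pairs, HMG2 and AGC1 at 0.42 ± 0.12 were below 0 after spike-in centring, and LEU4 was below 0 with median centring and in the authors' deposited table with its sign turned. Signal shared by probes of near-identical copies was not tested and would narrow such gaps.

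**Figure D4:**
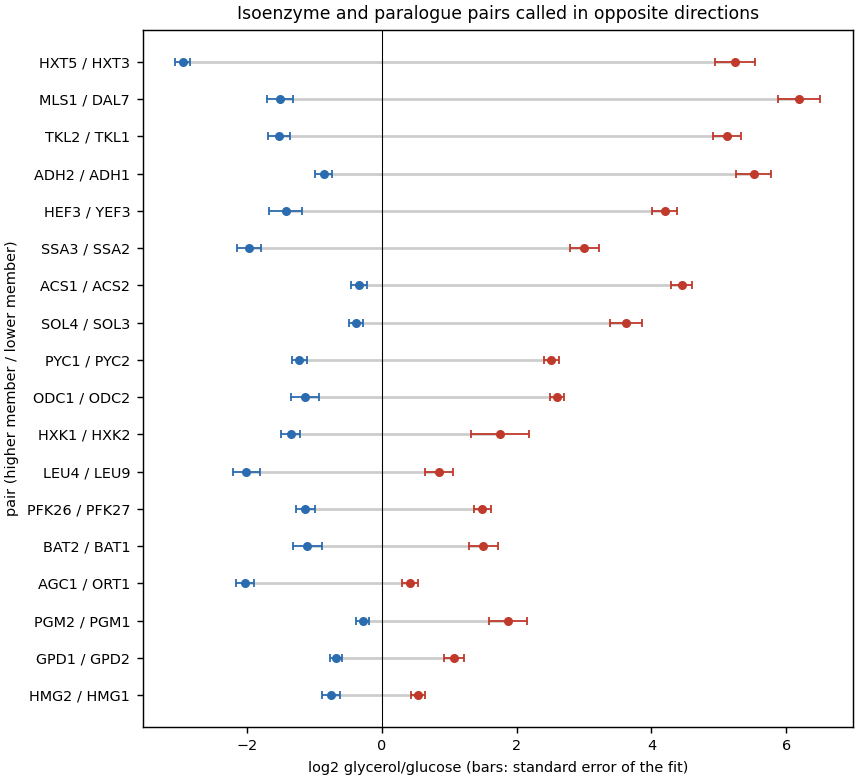
Log2 glycerol over glucose of 18 of the 19 pairs with one member called higher (red) and the other lower (blue), with standard errors of the fit as bars and pairs ordered by their gap. The gap is widest for HXT5 and HXT3, at 5.24 and -2.95, and narrowest for HMG2 and HMG1, at 0.54 and -0.75.

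The parental response was set against that of the ERG12 mutant by the contrast of both ratios, mutant minus parental. From this contrast a dye effect drops out if it is the same on all 4 arrays. The strains also differ in URA3 signal, so an effect of ERG12 cannot be told apart from one of URA3. Of 5343 genes 100 (1.87%) were called, 46 above 0 and 54 below, and 96 of these 100 were called in the parental response itself. In 85 both fitted ratios had the same sign and the parental one was larger in size, in 6 the mutant one was larger, and in 9 the signs differed with no gene called in both strains. For 5 of the 100 the mutant's glucose channel was not well above background on either array, so that the mutant ratio is a lower bound and the difference is not measured. The mutant arrays correlated at 0.898 across genes, against 0.953 for the parental ones, and dependence on a single mutant array was not tested. The count was fragile. It was 0 without either parental array, 44 with the scanner's processed signals, 43 with slide row as a block, 258 with median centring and 1135 at an unadjusted p under 0.05.

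Genes with larger ratios in the parental strain included ACH1, with 7.37 ± 0.18 against 5.86 ± 0.18 in the mutant, a difference of -1.502 ± 0.25 (limma adjusted p = 0.0409). HEF3 had 4.20 ± 0.18 against 2.69 ± 0.18. CMK1 and SUR1 had differences of -1.75 ± 0.30 and -1.75 ± 0.23, and YDR433W, a dubious reading frame, had -1.46 ± 0.23. The 5 genes with a bound were ADY2, ACS1, ALT2, an alanine transaminase, RGI2 and POT1. Against parental ratios of 8.35, 4.45 and 2.99, the mutant ratios of ADY2, ACS1 and ALT2 were limited by dim glucose signal, and a smaller response in the mutant is not shown for them. For RGI2 and POT1 the glucose channel was not well above background in either strain, so both ratios are bounds and their difference has no direction.

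On the falling side the sulfur genes stood out by number, with 11 of 35 called for the difference against 1.87% of all genes. MET6 had -2.63 and -2.79 in the parental strain and -0.28 and -1.08 in the mutant, a difference of 2.03 ± 0.26 (limma adjusted p = 0.0243). MET13, SUL2 and MET5 had -2.54 ± 0.24, -2.40 ± 0.15 and -2.52 ± 0.14 in the parental strain and differences of 1.77 ± 0.34, 1.57 ± 0.21 and 1.39 ± 0.20. MET10 had a difference of 1.48 ± 0.20 and MET17 one of 1.54 ± 0.29. TDH3 had -2.53 ± 0.23 against -0.48 ± 0.23, a difference of 2.06 ± 0.33 (limma adjusted p = 0.034). URA2 had 1.95 ± 0.20 and ADH5 1.38 ± 0.14. PIP2 and RNR1 were lower in glycerol in the parental strain, while the mutant ratios were 0.07 ± 0.16 and 0.005 ± 0.13, not called. Larger changes in the mutant were seen for GND2, a 6-phosphogluconate dehydrogenase, with 1.60 and 1.23 in the parental strain and 2.98 and 2.76 in the mutant, for GRE1 with 5.85 ± 0.13 and for AQR1 with -2.51 ± 0.11.

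**Figure D5:**
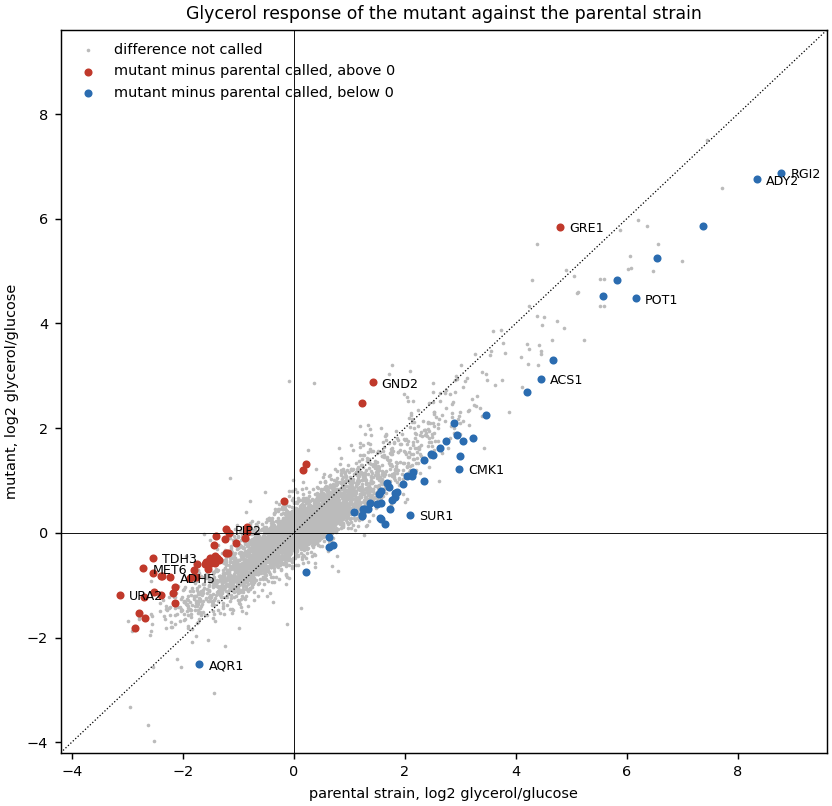
Log2 glycerol over glucose of 5343 genes in the parental strain (horizontal axis) and the mutant (vertical axis), with equal values on the dotted line. Genes called for mutant minus parental are red where the difference is above 0 and blue where it is below. Of the 100, 85 have the same sign in both strains and lie closer to 0 in the mutant, and 5 have a mutant ratio that is a lower bound.

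The same quantity can be computed from the other 6 arrays, as the mutant response plus mutant over parental in glucose minus mutant over parental in glycerol. RNA extracts may be shared with the parental arrays and a dye effect does not cancel, so these values stand beside the direct ones without a test of their likeness. For JEN1 the indirect value was 7.52 ± 0.29 against 7.71 ± 0.17, for ICL1 6.87 ± 0.38 against 7.45 ± 0.22, and for ADR1 4.44 ± 0.35 against 4.46 ± 0.20. Among genes that fell, URA2 had -2.85 ± 0.25 against -3.13 ± 0.14, RPA190 -2.35 ± 0.21 against -2.57 ± 0.12 and MIG2 -2.52 ± 0.32 against -2.11 ± 0.19. Of the list medians, the citrate cycle had 2.72 against 2.42, the proteasome 0.91 against 0.92 and cytosolic tRNA charging enzymes -1.30 against -1.33.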

How the data were processed

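Per the file headers, the scanner files hold spot intensity as median pixel brightness of both channels with its local background, made by Agilent Feature Extraction 10.10.1.1. The deposited files also hold processed intensity, background-subtracted and scaled between dyes, and a log10 ratio of Cy5 over Cy3, per the file headers. Flags for spots above background, outliers and saturation come from the same software. The authors also deposited 1 combined value per gene and comparison, taken here as log2, for which the submitters' processing notes name limma without a version; it was used only as an alternative, with its sign turned for the parental column.

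The analysis used limma 3.58.1 in R 4.3.3. Background was removed from median signals by normexp (offset 50, so ratios of dim spots are compressed). Each array was then normalized by loess, in which control spots and flagged outliers had no weight. Both spots of a gene were averaged. A gene was tested when, for at least 1 of 4 conditions, both spots passed the scanner's test against background in all channels of that condition. This left 5343 of 6256 genes; 4718 passed on all 16 channels. The parental arrays had 5035 to 5330 genes above background in Cy5 and 5309 to 5461 in Cy3, and no saturated gene spot. The median SD of both spots of a gene was 0.05 on each parental array. All 8 arrays were fitted together with 1 coefficient for each comparison and 4 residual degrees of freedom, and variances were moderated by eBayes. All 8 arrays lay on 1 slide, with the comparison in the column and the replicate in the row, and an effect of the column cannot be told apart from that of the comparison. The fit was tested on simulated data. A fold given as a bound takes the dimmest signal well above background, after Aquantile scaling, in place of a dimmer one.

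Gene symbols came from RefSeq R64 through the systematic names on the array; 5756 genes matched and 500 did not. Gene lists, pairs and comparisons were chosen with earlier results of these data known. Genes were named by a rule: members of lists of up to 12 genes, in longer lists the 4 called members with the largest change and called members against the list's main direction, both members of pairs, the 25 highest and 25 lowest called genes, and the 10 largest called differences from the mutant in each direction. The text names part of these, and all other named genes were chosen after their values were seen. Gene lists were described by counts and medians, with no set test. Promoter and protein sequences were not analysed here. A few genes of these lists are not reported here by name.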

Additional observations from a re-analysis of the deposited data

Results flagged for a closer look

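For 45 genes named in the report the glycerol response differed between the strains by the limma contrast of mutant minus parental (adjusted p under 0.05 over 5343 genes, of which 1.87% were called). Values are differences of log2 ratios, with standard errors in the report where given there; no explanation was weighed and, without either parental array, none of them passed. For ADY2, ACS1, ALT2, RGI2 and POT1 the mutant's glucose signal was not well above background, so their fitted differences are not measured on both sides and show no smaller response in the mutant. Below 0, for genes that rose in the parental strain, were the carbon compound and respiratory genes ADY2 (-1.59), ACH1 (-1.502), ACS1 (-1.51), YAT1 (-1.29), YIG1 (-0.99), MDH1 (-1.21), COX20 (-1.04), RGI2 (-1.90), FMP16 (-1.37) and BOP2 (-1.05). The peroxisomal genes POT1 (-1.69), ECI1 (-0.79) and PEX30 (-0.97) were below 0 as well. So were HEF3 (-1.504), ALT2 (-1.53), CMK1 (-1.75), SUR1 (-1.75), APE3 (-1.08), ATG34 (-0.97), CAR2 (-1.05), GNP1 (-1.28), MRP20 (-0.81), RIO1 (-0.79) and YDR433W (-1.46). Above 0, for genes that fell in the parental strain, were the sulfur genes MET6 (2.03), MET13 (1.77), SUL2 (1.57), MET17 (1.54), MET10 (1.48), MET5 (1.39) and STR3 (1.06). Other genes that fell and lay above 0 were TDH3 (2.06), URA2 (1.95), ADH5 (1.38), PYC2 (0.83), PIP2 (1.29), RNR1 (1.18), GCV2 (1.24), SER33 (0.79), MES1 (1.04), CHS3 (1.14) and CPT1 (0.97). A larger change in the mutant was found for GND2 (1.45), GRE1 (1.04) and AQR1 (-0.81).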

How the results depend on the processing

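The counts of genes called higher and lower stayed within 1.5 times of 1679 and 1631 under the scanner's processed signals, a smaller normexp offset, median centring, both other filters, a fit of the parental arrays alone, the slide row as a block and, chosen after seeing the data, a loop model without a dye term. Spike-in centring gave 420 higher and 2905 lower, and the indirect estimate from the other 6 arrays 881 and 874. Without one parental array the counts were 1157 to 1373 higher and 1089 to 1275 lower, with the lone array assumed to vary like the other comparisons. The share of calls that were higher was 50.7%, 37.8% with median centring and 12.6% with spike-in centring. A loop model with a dye term, planned beside these, could not be fitted, since the dye term is not separable from the conditions.

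For mutant minus parental the 100 calls became 44 with processed signals, 258 with median centring, 845 with spike-in centring (chosen after seeing the data), 1030 in the loop model and 0 to 0 without a parental array. With the slide row as a replicate block the count was 43, of which 40 were among the 100, beside 1675 higher and 1593 lower in the parental response. The labels do not tie rows to shared cultures. Row differences of the parental response correlated across genes at -0.06 with those of the mutant response, 0.14 with mutant over parental in glucose and -0.25 with mutant over parental in glycerol. RNA shared within a row would give the signs of the last 2 values, and whether rows share extracts was not tested.

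Signs turned mainly with spike-in centring: AGC1 -0.31, ASH1 -0.22, COX2 -0.017, CTS1 -0.0079, EAP1 -0.026, HMG2 -0.19, LOC1 -0.22, MET4 -0.34, MHT1 -0.36, REG1 -0.19, SIP1 -0.40, STE6 -0.31, and TPO2 -0.69 and URA3 -0.71, which were not called before. The differences for AQR1, ECI1, MRP20 and RIO1 became 0.0029, 0.030, 0.0091 and 0.025. Median centring turned LEU4 to -0.058 and SIP1 to -0.038, and the authors' deposited value for LEU4, sign turned, was -0.14. Of 407 tested genes named, 37 and 26 lost their call without the first or the second parental array and 66 in the indirect estimate. Of 79 gene lists 45 had a median above that of all genes, 43 to 47 under the alternatives.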
